A study of Mus musculus with 4 samples.

Results

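The genes described here are 10 members of the bone morphogenetic protein (BMP) system, followed across the cell classes of the newborn mouse oviduct and uterus. They were 5 ligands (Bmp3, Bmp4, Bmp7, Gdf7 and Gdf10), 2 secreted antagonists (Fst and Grem1) and 3 response genes (Id1, Id2 and Id3). All 10 were found by symbol, each with 1 entry, among the 31053 genes of the count matrices. The cells came from untreated wild-type CD1 (ICR) neonates on postnatal day 3, and each organ was profiled in 2 single-cell libraries. According to the design text the replicates of both organs were pools of the same 3 and 4 neonates, so oviduct and uterus shared their animals. Cells were released with the enzymes Collagenase B, DNase I and Dispase II, and the labels give their type as mesenchymal and epithelial. The libraries were made with the 10x Genomics 3′ v3.1 chemistry, which counts each captured RNA molecule by its unique molecular identifier (UMI). Counts were summed per library and per cell class, and a level is given as CPM, the UMIs of the gene per 1000000 UMIs of that sum.

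BMP ligands are secreted dimers that bind paired type I and type II receptor kinases on the cell surface, and the receptors phosphorylate SMAD proteins that enter the nucleus with SMAD4. Antagonists such as noggin, gremlin and follistatin bind the ligands outside the cell and keep them from their receptors. The Id genes are among the best known direct SMAD targets and encode inhibitors of DNA binding that sequester basic helix-loop-helix factors. In the reproductive tract the pathway is known for signalling between the mesenchyme and the epithelium of the Müllerian duct derivatives.

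The called barcodes numbered 7808 and 6773 for oviduct and 5716 and 6322 for uterus, with 61117726 to 114419939 UMIs per library. After filters and doublet removal 6488, 5524, 3872 and 4280 cells remained, and the filters took 11.4% and 13.8% of the oviduct barcodes against 29.0% and 28.7% of the uterine ones. Any pair of libraries shared between 8 and 15 cell barcodes. Cells were put into 7 classes by marker genes that include none of the 10 genes, namely epithelium, mesothelium, mesenchyme, pericytes, smooth muscle, myeloid cells and blood endothelium. Not all kept cells fell into a class. Cells with intermediate levels of smooth muscle markers were 19.0% and 19.2% of kept oviduct and 25.8% and 23.6% of kept uterine cells. Cells high in red cell markers were 5.92% and 5.49% against 2.94% and 12.7%, and ungated cells 4.13% and 5.88% against 8.06% and 7.38%. Every marker of each class's own list was seen in that class, but the gates used these lists, so this is no support for the class names. Mesenchyme was the largest class, with 2860 and 2109 oviduct and 1545 and 1528 uterine cells. Its cells fell into different clusters in the 2 organs: clusters led by Wnt16 and Notum, by Nr4a2 and Pthlh or by Zim1 and Angptl7 were nearly all oviduct, and a cluster led by Col6a4 and Robo2 was nearly all uterus. Mesenchymal markers summed to 9181 and 9615 CPM in oviduct mesenchyme and to 3026 and 2980 CPM in uterine mesenchyme, and the part of that gap in the results below was not tested. Epithelium was the thinnest layer, with 114 and 193 oviduct cells and 38 and 43 uterine cells, and the 10 deepest cells held 76.0% and 80.4% of the UMIs of the uterine sums. Judged by red cell (erythroid) markers, RNA free in the droplets made up at most 0.212% to 2.98% of a class sum. Cells high in these same markers had been left out beforehand, so this bound can be too low.

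The plot of levels by class shows that in the oviduct the ligands and antagonists had their highest level in mesenchyme, except Bmp4, which was highest in mesothelium. The Id genes were detected in every class.

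**Figure D1:**
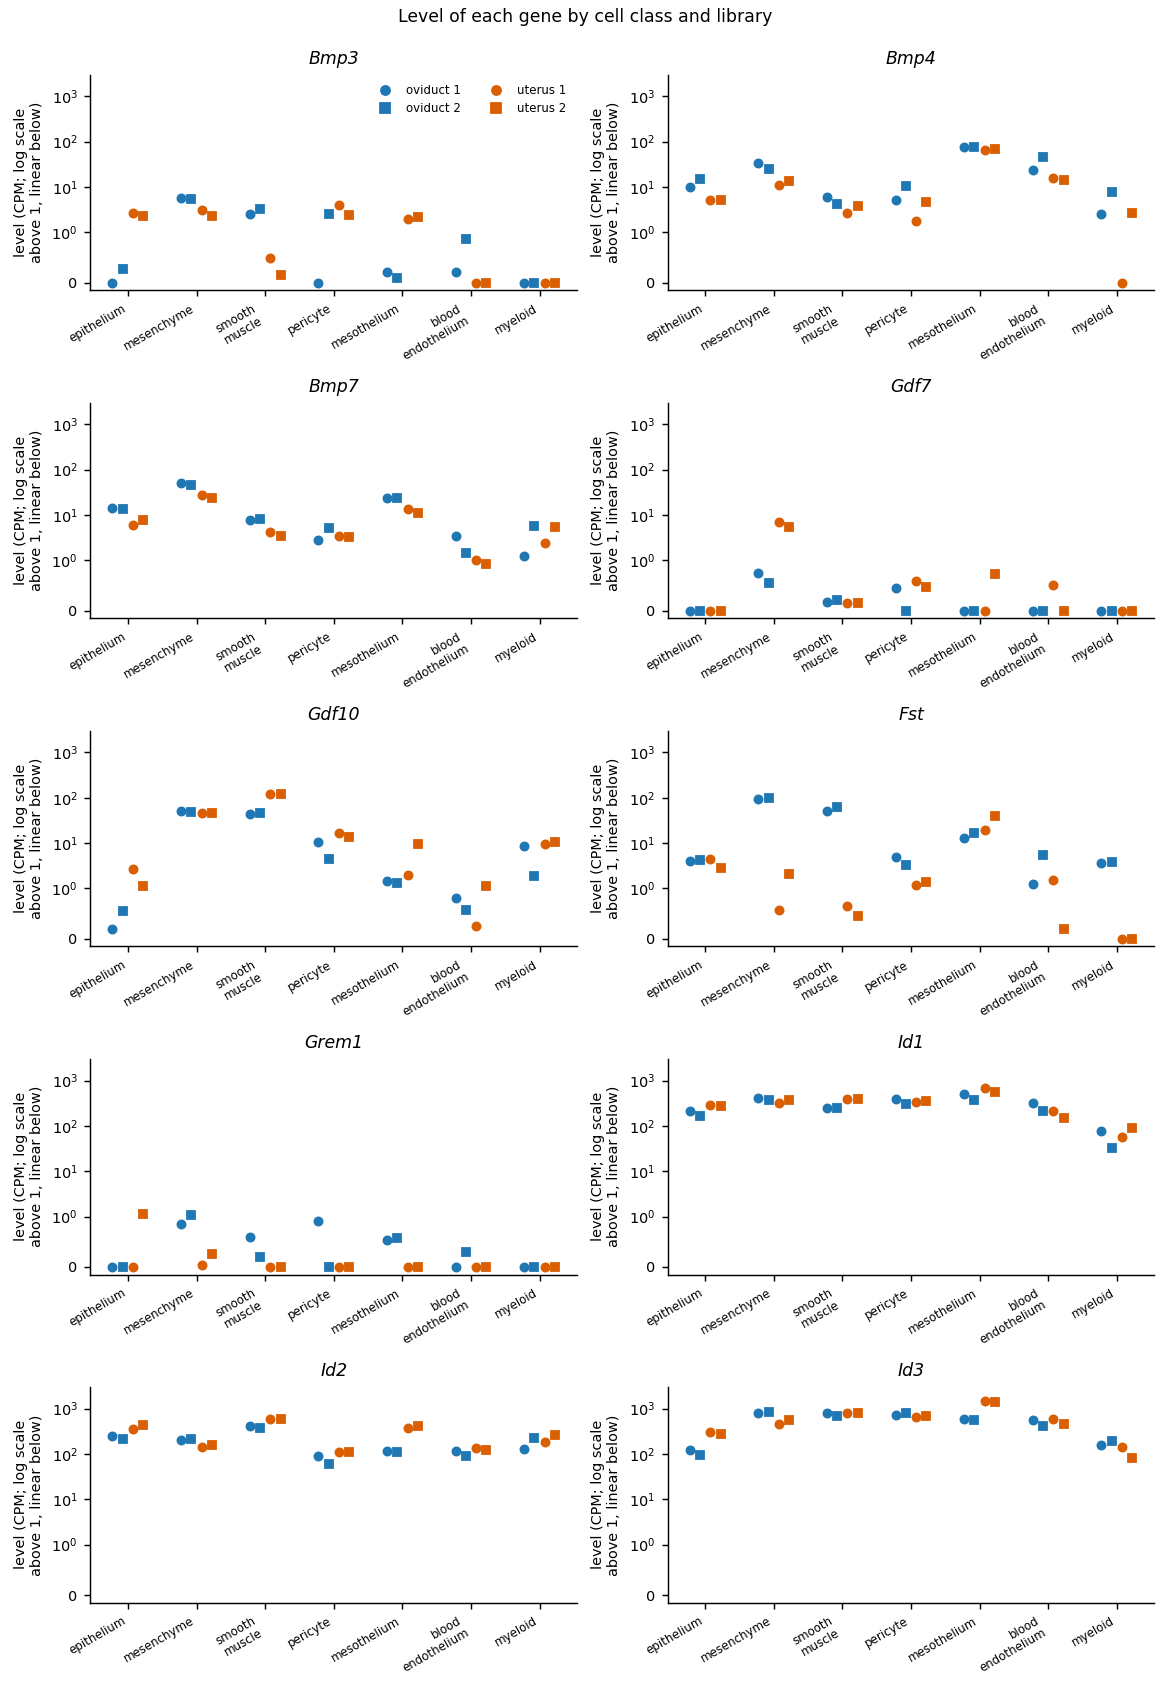
Level of each of the 10 genes in CPM (vertical axis, log scale above 1 and linear below) in 7 cell classes (horizontal axis); each point is 1 library, blue for oviduct and orange for uterus, circles for replicate 1 and squares for replicate 2. Fst stood between 49.8 and 98.7 CPM in the mesenchyme and smooth muscle of the oviduct and between 0.447 and 2.05 CPM in those of the uterus.

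In mesenchyme, the oviduct carried more of 3 ligands, both antagonists and 2 of the Id genes, and the uterus carried more Gdf7. All 10 genes were tested, 7 were higher in oviduct and 1 in uterine mesenchyme (edgeR quasi-likelihood test on the library sums, Benjamini-Hochberg adjusted p under 0.05). Of all 14729 genes tested in this class 45.6% were called, 24.3% for the oviduct and 21.3% for the uterus. The median log2 difference, oviduct minus uterus, was 0.74 over the 10 genes and about 0 over all genes tested (-0.00039). Markers of other cells also differed between the mesenchymal sums. Mesothelial markers summed to 85.9 and 82.1 CPM in the oviduct and to 22.1 and 24.3 CPM in the uterus. Blood endothelial markers summed to 52.1 and 58.0 CPM against 24.8 and 24.8 CPM, and every marker of both lists was seen. Granulosa markers, 3 of 4 of which were seen, stood at 108.1 and 112.2 against 70.4 and 59.4 CPM. Higher in the uterus were smooth muscle markers, at 494.4 and 501.1 against 544.3 and 551.5 CPM. So were pericyte markers, at 73.7 and 79.3 against 82.1 and 83.0 CPM, and epithelial markers, at 13.6 and 15.8 against 19.1 and 22.6 CPM. The part of these markers in the values below was not tested. With 2 libraries in each organ the p-values rest on spread between pools of neonates, not between single animals. The edgeR test also shares information on that spread over all genes tested, so a small p-value does not come from 2 libraries alone.

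Bmp4, a ligand of the decapentaplegic-like branch, stood at 34.0 and 25.1 CPM in oviduct mesenchyme and at 10.8 and 13.6 CPM in uterine mesenchyme. The log2 difference was 1.22 ± 0.16 (SE), with an adjusted p of 8.47e-05. Both oviduct libraries were above both uterine ones. Bmp7, a ligand of the 60A-like branch with broad roles in epithelial and mesenchymal organs, stood at 51.4 and 44.9 CPM in the oviduct and at 27.6 and 24.2 CPM in the uterus (log2 difference 0.84 ± 0.10, adjusted p 4.13e-05). Bmp3, an atypical family member that can oppose other BMPs, was low throughout, at 5.61 and 5.28 CPM in the oviduct against 3.13 and 2.25 CPM in the uterus (log2 difference 0.97 ± 0.19, adjusted p 0.00171, and 1.66 with clusters in place of the marker gates). These 3 ligands therefore ranked the organs alike in mesenchyme, with no overlap between libraries.

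Gdf7, a ligand also known as BMP12, was the gene with the opposite order. Its levels were 0.748 and 0.549 CPM in oviduct mesenchyme, from 28 and 13 UMIs, and 6.84 and 5.43 CPM in uterine mesenchyme, from 153 and 130 UMIs. The log2 difference was -3.24 ± 0.24 (adjusted p 1.06e-06), and it lay between -3.54 and -3.02 under all alternatives tried. After thinning each cell to 5000 UMIs, a Gdf7 UMI was seen in 0.447% and 0.374% of oviduct mesenchymal cells and in 3.59% and 3.02% of uterine ones. The unthinned shares were 0.909% and 0.616%, against 8.54% and 7.46% in the uterus. In epithelium no Gdf7 UMI was seen in any library, which with 23 and 20 thinned cells in the uterine libraries allows a share of cells with a UMI of up to 13.04% and 15%. Mesenchyme was the class with the highest Gdf7 level in both organs, and each of the other 6 classes held at most 2 Gdf7 UMIs in any library.

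Gdf10, a ligand also known as BMP3B, did not differ in mesenchyme by the test. It stood at 51.0 and 49.3 CPM in the oviduct and at 45.0 and 45.9 CPM in the uterus (log2 difference 0.08 ± 0.08, adjusted p 0.419). This value changed with the way cells were grouped. With clusters in place of the marker gates it was -0.55, with an adjusted p of 0.000123, and the cause of the change was not tested. Cells with intermediate levels of smooth muscle markers, which the gates keep out of mesenchyme, held 44.8 and 41.3 CPM in the oviduct and 103.9 and 96.8 CPM in the uterus.

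The promoters of 4 of these genes are shown because their transcripts order the organs differently in mesenchyme: Bmp4 and Grem1 were higher in the oviduct, Gdf7 was higher in the uterus and Gdf10 did not differ by the test. Each sequence is the 250 bases before the RefSeq start site in GRCm38.p6, the assembly behind mm10, written 5′ to 3′ on the gene's own strand. Capitals mark GGCGCC, a palindrome found in BMP-responsive elements of Id genes.
Bmp4 (chr14:46390670-46390919, minus strand): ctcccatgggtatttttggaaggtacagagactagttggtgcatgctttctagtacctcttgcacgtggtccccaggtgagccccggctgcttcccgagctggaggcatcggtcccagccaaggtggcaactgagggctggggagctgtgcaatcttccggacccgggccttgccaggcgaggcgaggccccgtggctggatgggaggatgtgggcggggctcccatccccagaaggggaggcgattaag
Gdf7 (chr12:8301955-8302204, minus strand): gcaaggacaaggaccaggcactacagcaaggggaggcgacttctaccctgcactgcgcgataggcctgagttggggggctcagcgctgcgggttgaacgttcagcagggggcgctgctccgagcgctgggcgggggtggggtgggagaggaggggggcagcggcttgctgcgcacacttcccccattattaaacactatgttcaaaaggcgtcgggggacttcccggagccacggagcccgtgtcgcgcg
Gdf10 (chr14:33923337-33923586, plus strand): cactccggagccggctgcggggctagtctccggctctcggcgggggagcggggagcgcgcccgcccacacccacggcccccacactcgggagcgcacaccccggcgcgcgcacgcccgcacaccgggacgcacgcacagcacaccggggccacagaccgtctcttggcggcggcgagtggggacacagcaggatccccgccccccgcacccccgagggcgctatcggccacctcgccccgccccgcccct
Grem1 (chr2:113758649-113758898, minus strand): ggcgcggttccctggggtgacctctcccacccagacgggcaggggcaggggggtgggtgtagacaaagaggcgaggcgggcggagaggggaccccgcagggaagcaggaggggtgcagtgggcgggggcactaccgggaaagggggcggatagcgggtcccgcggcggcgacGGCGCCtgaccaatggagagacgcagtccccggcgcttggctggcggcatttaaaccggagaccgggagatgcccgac
Of the 10 genes, 6 had a promoter in the RefSeq table, the other two being Id2 and Id3. GGCGCC, searched on both strands, occurred 1 time in Grem1 and 1 time in Id2, and not in the windows of Bmp4, Gdf7, Gdf10 or Id3. It was present in 9.59% of 32851 promoter windows of the same length. GTCT or its complement AGAC, the short SMAD-binding motif, occurred 1 time in Bmp4, 0 times in Gdf7, 3 times in Gdf10, 4 times in Grem1, 1 time in Id2 and 2 times in Id3, and in 82.86% of all windows. The GC content ran from 62.8% (Id2 and Id3) to 78.8% (Gdf10), against a median of 52.4% over all windows.

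Both antagonists were higher in oviduct mesenchyme, and Fst had the largest organ difference of the 10 genes there. Fst was also among the leading genes of the cluster led by Wnt16 and Notum, which held 1245 and 803 oviduct and 5 and 12 uterine cells. The part of that cluster in the Fst difference was not tested. Fst encodes follistatin, which binds activins and several BMPs. It stood at 91.8 and 98.7 CPM in oviduct mesenchyme, from 3437 and 2335 UMIs, and at 0.581 and 2.05 CPM in uterine mesenchyme, from 13 and 49 UMIs. The log2 difference was 6.09 ± 0.25 (adjusted p 7.88e-09), and it stayed between 5.36 and 7.30 under all alternatives tried. A ratio of the pooled counts gave 70.6, with a 95% counting interval of 55.0 to 92.2. Thinned to 5000 UMIs per cell, 26.0% and 24.1% of oviduct mesenchymal cells had an Fst UMI, against 0.271% and 0.962% of uterine ones. The unthinned shares were 35.4%, 32.8%, 0.388% and 1.11%. In blood endothelium, taken as a class with little of this gene, the thinned share was 0.758% in oviduct replicate 1, from 1 of 132 cells, and 0 in the other libraries. With 128 and 143 uterine endothelial cells, 0 allows shares of up to 2.34% and 2.10%, so at this depth the uterine mesenchymal shares could not be set apart from those of endothelium. By the erythroid bound, which can be too low, free RNA held at most 0.303% of the Fst counts of a mesenchymal sum.

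Oviduct smooth muscle also carried Fst, at 49.8 and 63.9 CPM, against 0.647 and 0.447 CPM in uterine muscle (log2 difference 6.63 ± 0.26, adjusted p 1.24e-09). In the mesothelium, the outer serosal lining, Fst stood at 12.7 and 16.5 CPM in the oviduct and 19.0 and 38.9 CPM in the uterus. That comparison did not pass the test (log2 difference -0.98 ± 0.29, adjusted p 0.064) but passed it in favour of the uterus with the replicate number as a block (log2 difference -0.95, adjusted p 0.00685). With 1 library left out it ran from -1.42 without uterine replicate 1 (adjusted p 3.99e-05) to -0.38 without uterine replicate 2, and it was also called without oviduct replicate 2 (-1.16, adjusted p 0.0121). In epithelium Fst was 3.94 and 4.17 CPM in the oviduct and 4.38 and 2.80 CPM in the uterus, and the libraries of the organs overlapped. The mesothelium thus had the highest Fst level of the 7 classes in the uterus, 28.9 ± 14.1 CPM, while mesenchyme had the highest in the oviduct, 95.2 ± 4.82 CPM (SD, n = 2). Fst overlaps Gm47040 on the opposite strand and Bmp4 overlaps Gm15217 and Gm15222. Whether the counting used strand is not given in the sources used here.

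Grem1 encodes gremlin, which binds BMP2, BMP4 and BMP7. It was rare everywhere, with 32 and 26 UMIs in oviduct mesenchyme and 1 and 6 UMIs in uterine mesenchyme. These counts gave 0.855 and 1.10 CPM against 0.045 and 0.251 CPM. The log2 difference was 2.58 ± 0.54 (adjusted p 0.00264), and the pooled counts gave a ratio of 6.28 with a 95% counting interval of 2.86 to 16.3. The call held with any 1 library left out, but the log2 difference was 1.85 without uterine replicate 1 and 4.26 without uterine replicate 2. In mesothelium 10 and 7 UMIs were counted in the oviduct and none in the uterus, but the uterine sums were too shallow for a bound.

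In smooth muscle, Fst and a pair of ligands were higher in the oviduct, and Gdf10, Id1 and Id2 were higher in the uterus. Of the 10 genes 8 were tested and 6 called, 3 in each direction, against a background of 26.4% of 12675 genes (14.2% for the oviduct and 12.2% for the uterus). The median log2 difference of the 8 was 0.24, against -0.01 over all genes tested. Smooth muscle was cut from a continuous score. Near the cut lay 34.1% and 40.9% of its oviduct cells and 54.4% and 58.2% of its uterine cells, so the organs differed in their place on that score. The 8 muscle markers summed to 12100 and 11510 CPM in oviduct muscle and to 9820 and 10080 CPM in uterine muscle. Smooth muscle cells, too, fell into different clusters in the 2 organs. A cluster led by Tnnt2 and Myh11 held 417 and 321 of the gated muscle cells of the oviduct and 1 in each uterine library, and a cluster led by Pcp4 and Cxcl14 held 14 and 29 oviduct and 302 and 278 uterine ones. Granulosa markers, 3 of 4 of which were seen, summed to 138.5 and 157.6 CPM in oviduct muscle and to 29.1 and 34.9 CPM in uterine muscle, and mesothelial markers to 27.4 and 25.8 CPM against 14.9 and 14.8 CPM. The part of the cut, the clusters and the markers in the muscle values was not tested.

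Gdf10 was the one ligand called higher in uterine muscle. It stood at 43.0 and 45.3 CPM in oviduct muscle and at 119.4 and 119.7 CPM in uterine muscle (log2 difference -1.48 ± 0.10, adjusted p 9.84e-08). After thinning, 18.3% and 19.6% of oviduct muscle cells and 41.0% and 43.3% of uterine muscle cells had a Gdf10 UMI, with unthinned shares of 38.0%, 37.6%, 66.8% and 69.1%. In blood endothelium the thinned shares were between 0 and 0.781%. Within the uterus, muscle exceeded mesenchyme (log2 difference 1.47 ± 0.06, adjusted p 1.95e-15), while within the oviduct the difference was -0.08 ± 0.06 (adjusted p 0.34). The organ difference itself differed between muscle and mesenchyme, by -1.56 ± 0.09 on the log2 scale (adjusted p 4.69e-12). With clusters in place of gates both stayed called but were smaller, at 0.79 for uterine muscle minus mesenchyme and -0.70 for the difference between layers.

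Bmp7 was 7.64 and 8.22 CPM in oviduct muscle and 4.202 and 3.43 CPM in uterine muscle (log2 difference 1.01 ± 0.23, adjusted p 0.00574). The call was lost with DESeq2 (adjusted p 0.0681) and after thinning (adjusted p 0.257). Bmp3 had 29 and 31 UMIs in oviduct muscle and 3 and 1 UMIs in uterine muscle (log2 difference 3.08 ± 0.55, adjusted p 0.00102), and the pooled counts gave a ratio of 9.05 with a 95% counting interval of 3.36 to 34.3. That log2 difference was 4.06 without uterine replicate 1, 2.48 without uterine replicate 2 and 4.46 with clusters, and stayed called. Bmp4 was low in muscle, 6.01 and 4.11 CPM in the oviduct and 2.59 and 3.88 CPM in the uterus, and did not pass the test (adjusted p 0.17).

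Muscle and mesenchyme differed in the same direction in both organs for Bmp4 and Bmp7. Bmp4 was lower in muscle by 2.44 ± 0.12 log2 units in the oviduct, written as muscle minus mesenchyme -2.44 (adjusted p 3.10e-14), and by -1.84 ± 0.19 in the uterus (adjusted p 3.17e-08, and -2.46 after thinning). For Bmp7 the same differences were -2.51 ± 0.10 (adjusted p 7.88e-16) and -2.69 ± 0.16 (adjusted p 1.72e-12, and -2.06 with clusters). Bmp3 was lower in muscle in the oviduct (-0.86 ± 0.21, adjusted p 0.00167) and in the uterus (-3.004 ± 0.51, adjusted p 5.55e-05, and -3.78 without uterine replicate 1). The oviduct call for Bmp3 was lost with DESeq2, without oviduct replicate 1, with clusters (-0.39) and after thinning (adjusted p 0.285, 0.129, 0.223 and 0.0583). Fst was lower in oviduct muscle than in oviduct mesenchyme (-0.65 ± 0.07, adjusted p 6.66e-08), a call lost with DESeq2 (adjusted p 0.548). In the oviduct 7 of the 10 genes were called, of which Id2 alone was higher in muscle, against 37.9% of all genes tested and 20.1% higher in muscle. In the uterus 8 were called, 4 in each direction, against 29.5% of genes, 16.7% higher and 12.8% lower in muscle.

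**Figure D2:**
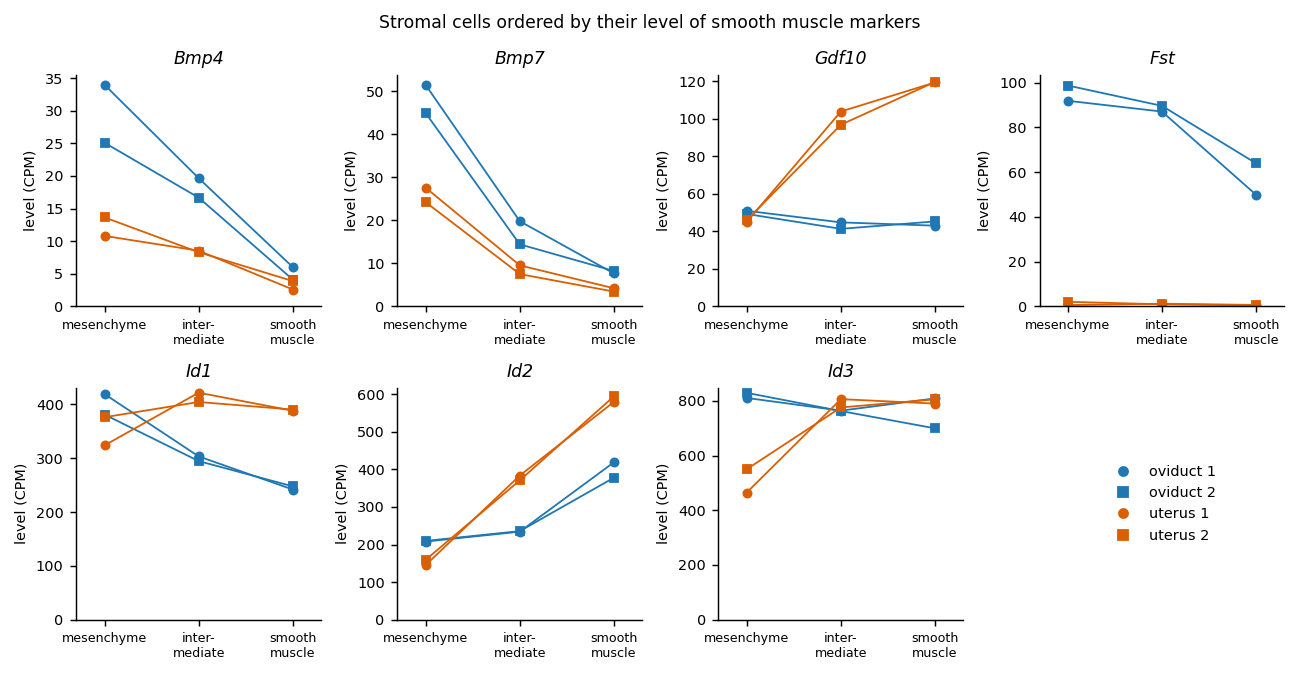
Levels in CPM (vertical axis, starting at 0) of 7 genes in stromal cells grouped by their level of smooth muscle markers (horizontal axis: mesenchyme, intermediate cells, smooth muscle); each line is 1 library, blue for oviduct and orange for uterus. Gdf10 and Id2 reached 119.7 and 594.5 CPM in uterine smooth muscle, and Bmp4 and Bmp7 were lowest at the muscle end in all 4 libraries.

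Between mesenchyme and smooth muscle the Id genes changed differently in the 2 organs, as the plot of stromal cells ordered by muscle markers shows. Id2 rose from 145.1 and 159.2 CPM in uterine mesenchyme to 579.6 and 594.5 CPM in uterine muscle (log2 difference 2.03 ± 0.04, adjusted p 1.30e-21). In the oviduct it rose from 207.9 and 209.5 to 418.9 and 377.9 CPM (1.04 ± 0.04, adjusted p 2.38e-16). Id1 fell from 419.2 and 381.2 CPM in oviduct mesenchyme to 241.8 and 247.7 CPM in oviduct muscle (-0.61 ± 0.05, adjusted p 8.49e-11), whereas in the uterus it rose from 323.9 and 376.2 to 388.2 and 390.4 CPM (0.23 ± 0.05, adjusted p 0.000304, lost without uterine replicate 1 with an adjusted p of 0.0942). Id3 stood at 810.7 and 829.4 CPM in oviduct mesenchyme and at 809.1 and 699.5 CPM in oviduct muscle (adjusted p 0.768), and rose in the uterus from 464.6 and 550.0 to 790.0 and 805.6 CPM (0.73 ± 0.04, adjusted p 2.05e-12). The Id3 difference in the oviduct had no stable sign when 1 of its libraries was left out, at -0.15 (adjusted p 0.0158) without replicate 1 and 0.09 (adjusted p 0.0083) without replicate 2. The interaction of organ and layer, tested after the data had been seen, was called for all 3 Id genes, at -0.84 ± 0.06 for Id1, -0.99 ± 0.06 for Id2 and -0.75 ± 0.06 for Id3 (adjusted p 7.55e-10, 4.50e-12 and 2.25e-09), against 21% of all genes, 11.1% with a negative and 9.95% with a positive sign. With clusters in place of gates the 3 interactions stayed called, but that of Id2 was -0.15 and that of Id3 -0.18, and the rise of Id2 and Id3 in the uterus was 1.21 and 0.30.

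Between the organs, Id2 and Id3 were higher in oviduct mesenchyme (log2 differences 0.40 ± 0.08 and 0.63 ± 0.10, adjusted p 0.00259 and 0.000337), and Id1 did not pass the test (0.14 ± 0.10, adjusted p 0.292). The Id1 value ran from 0.012 to 0.263 with 1 library left out, and its lowest over all alternatives was -0.059. The Id2 difference changed sign with clusters in place of gates, to -0.14 (adjusted p 0.177). Intermediate cells had 234.2 and 235.7 CPM of Id2 in the oviduct and 383.6 and 370.7 CPM in the uterus. In smooth muscle Id1 and Id2 were higher in the uterus (log2 differences -0.71 ± 0.09 and -0.60 ± 0.09, adjusted p 3.61e-05 and 0.000289), and Id3 did not differ by the test (-0.12 ± 0.10, adjusted p 0.385). Over all alternatives this Id3 value ran from -0.24 to 0.14, so its sign was not stable.

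**Figure D3:**
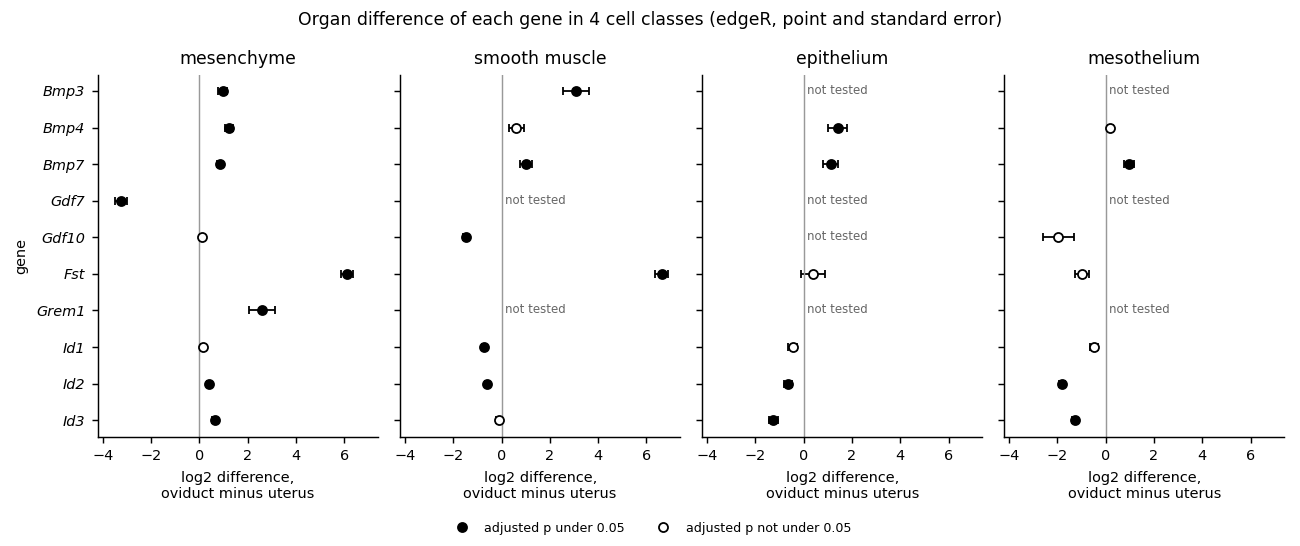
Log2 difference, oviduct minus uterus (horizontal axis), of each gene (vertical axis) in mesenchyme, smooth muscle, epithelium and mesothelium; points are edgeR estimates, bars are standard errors worked back from the F statistic and filled points had an adjusted p under 0.05. Fst lay at 6.09 in mesenchyme and 6.63 in smooth muscle, and Id2 and Id3 lay below 0 in mesothelium and epithelium.

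In mesothelium, Id2 and Id3 were higher in the uterus and Bmp7 was higher in the oviduct. These were 3 of 7 genes tested, against 7.51% of 12855 genes (4.4% for the oviduct and 3.11% for the uterus). The median log2 difference of the 7 was -0.98, and over all genes tested it was about 0 (-0.00059). Id2 stood at 117.9 and 108.9 CPM in the oviduct and at 380.2 and 410.3 CPM in the uterus, a 3.48-fold difference (log2 difference -1.80 ± 0.12, adjusted p 1.31e-05). Id3 stood at 593.6 and 574.9 CPM in the oviduct and at 1465 and 1374 CPM in the uterus, a 2.43-fold difference (-1.28 ± 0.11, adjusted p 5.57e-05). Both kept their direction and their call under every alternative run, within -1.85 to -1.67 for Id2 and -1.31 to -1.20 for Id3. Thinned, Id2 UMIs were seen in 32.7% and 35.5% of oviduct and 77.03% and 81.1% of uterine mesothelial cells, with unthinned shares of 69.0%, 56.2%, 94.7% and 92.9%. Mesothelial cells numbered 480 and 500 in the oviduct but 75 and 56 in the uterus. Their sums also differed in smooth muscle markers, 705.2 and 634.8 CPM in the oviduct and 1589 and 1524 CPM in the uterus, and in mesenchymal markers, 7021 and 6231 CPM against 10890 and 8957 CPM, and the part of these in the Id values was not tested.

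Id1 in mesothelium stood at 511.1 and 376.8 CPM in the oviduct and at 680.5 and 555.8 CPM in the uterus (log2 difference -0.48 ± 0.16, adjusted p 0.0987). It was called with the replicate block (-0.49, adjusted p 0.00848), after thinning (-0.67, adjusted p 0.00733) and with no filter on low counts (-0.42, adjusted p 0.0107). With 1 library left out it ran from -0.71 to -0.26. Bmp7 stood at 24.2 and 23.6 CPM in the oviduct and at 13.8 and 10.8 CPM in the uterus (0.95 ± 0.22, adjusted p 0.0214). Its call was lost with DESeq2, without uterine replicate 2 and after thinning (adjusted p 0.103, 0.0879 and 0.658). Bmp4 reached its highest level of the 7 classes here, 75.4 ± 1.53 CPM in the oviduct and 66.3 ± 1.96 CPM in the uterus (SD, n = 2), and did not differ by the test (0.19 ± 0.13, adjusted p 0.457). Gdf10 was low, at 1.48 and 1.32 CPM in the oviduct and at 1.97 and 9.36 CPM in the uterus (-1.96 ± 0.62, adjusted p 0.0903), and just passed with the replicate block (-1.89, adjusted p 0.0495). With 1 library left out Gdf10 ran from -2.72 without uterine replicate 1 (adjusted p 0.00187) to -0.46 without uterine replicate 2.

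**Figure D4:**
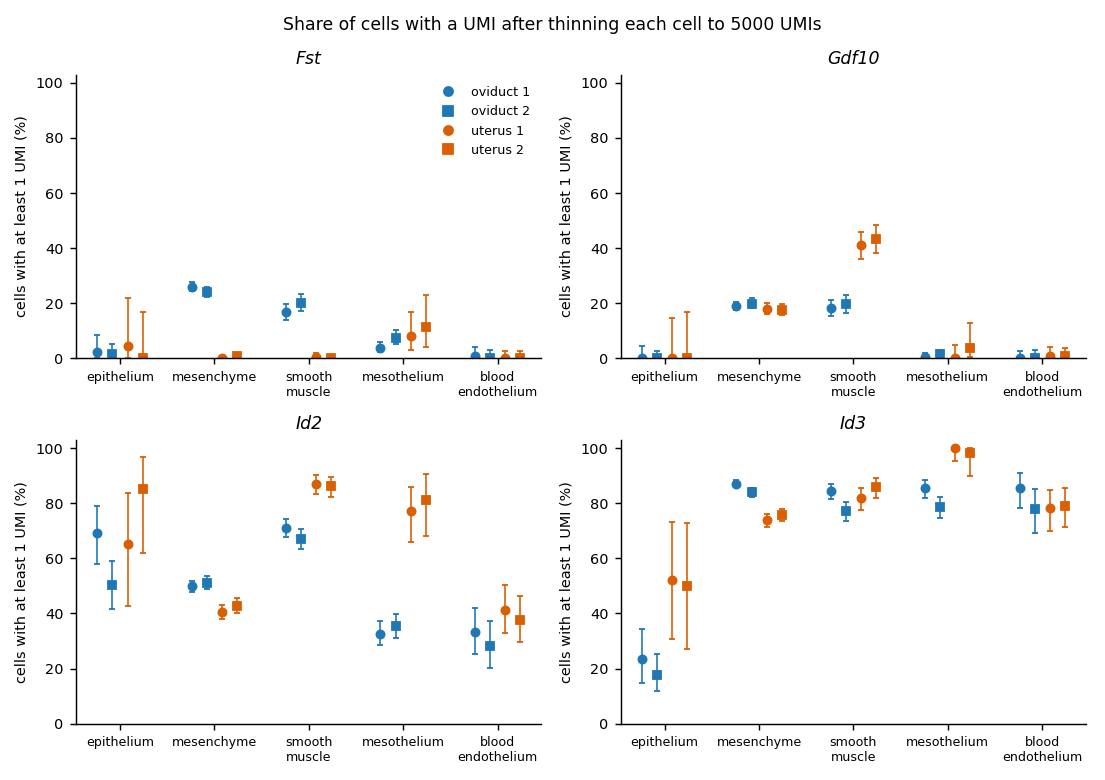
Share of cells with at least 1 UMI of Fst, Gdf10, Id2 and Id3 (vertical axis, percent) in 5 cell classes (horizontal axis) after each cell was thinned to 5000 UMIs and shallower cells were left out; points are libraries, blue for oviduct and orange for uterus, and bars are exact 95% binomial intervals that cover counting error only. Id3 was seen in 100% and 98.1% of uterine and 85.5% and 78.6% of oviduct mesothelial cells.

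In epithelium, Bmp4 and Bmp7 were higher in the oviduct and Id2 and Id3 were higher in the uterus, and each of these 4 calls was lost when either oviduct library was left out. Those of Bmp4, Bmp7 and Id2 were also lost with clusters in place of gates, at log2 differences of 0.85, 0.44 and -0.17 (adjusted p 0.664, 0.818 and 0.764), where the uterine sums held 1 and 1, 0 and 3, and 16 and 49 UMIs of the 3 genes. They were lost too with 1 uterine library left out, replicate 2 for Bmp4 and Id2 (0.0657 and 0.127) and replicate 1 for Bmp7 (0.087). Of the 10 genes 6 were tested and 4 called, against 21.6% of 11678 genes (13.3% for the oviduct and 8.33% for the uterus). The median log2 difference of the 6 was -0.03 and that of all genes tested 0.01. The epithelial RNA of the organs came from different clusters. A cluster led by Plet1 and Dynlrb2 held 4620967 and 6916120 UMIs of the oviduct sums and no uterine cell. A cluster led by Gm26917 and Mecom, which the marker rule left unnamed, held 594796 and 72176 UMIs of the oviduct sums and 1115679 and 1738541 of the uterine ones, from 29 and 22 uterine cells. Id3 stood at 125.1 and 93.2 CPM in the oviduct and at 300.3 and 276.0 CPM in the uterus (log2 difference -1.25 ± 0.19, adjusted p 0.000635). The value was -1.46 without oviduct replicate 1 (adjusted p 0.0501) and -1.04 without replicate 2 (adjusted p 0.0718). Thinned, an Id3 UMI was seen in 23.5% and 17.8% of oviduct epithelial cells and in 52.2% and 50% of uterine ones, where 23 and 20 cells were deep enough to count. The unthinned shares were 45.6%, 43.5%, 60.5% and 65.1%.

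Id2 in epithelium stood at 243.8 and 212.3 CPM in the oviduct and at 364.3 and 428.8 CPM in the uterus (-0.65 ± 0.18, adjusted p 0.0224), and was not called with the replicate block (-0.65, adjusted p 0.0864). Id1 stood at 207.8 and 166.9 CPM against 291.6 and 279.3 CPM (-0.45 ± 0.18, adjusted p 0.0923), and was called after thinning (-0.78, adjusted p 0.0329). Bmp4 stood at 9.75 and 14.9 CPM in the oviduct and at 5.25 and 5.04 CPM in the uterus, from 6 and 9 UMIs in the latter (1.42 ± 0.39, adjusted p 0.0215). Bmp7 stood at 14.3 and 13.7 CPM against 6.13 and 7.84 CPM, from 7 and 14 uterine UMIs (1.11 ± 0.32, adjusted p 0.0253). With DESeq2 neither ligand was called (adjusted p 0.138 and 0.196). Mesenchymal markers summed to 110.5 and 90.4 CPM in the oviduct epithelial sums and to 232.9 and 56.5 CPM in the uterine ones, so the uterine libraries lay on both sides of the oviduct ones. Smooth muscle markers summed to 35.4 and 47.2 CPM in the oviduct and to 204.0 and 49.8 CPM in the uterus, both uterine libraries being above both oviduct ones, and all 8 were seen. Blood endothelial markers went the other way, at 73.9 and 50.1 CPM against 30.7 and 24.6 CPM. The part of these markers, and of the clusters, in the epithelial values was not tested.

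Epithelium minus mesenchyme was negative for most of the genes. In the oviduct 9 of the 10 were called, all lower in epithelium, against 64.7% of genes in either direction and 32.7% higher in mesenchyme. Id2 was the exception (0.16 ± 0.11, adjusted p 0.205). Gdf10 showed a wide gap, at 0.188 and 0.556 CPM in oviduct epithelium (-6.91 ± 0.28, adjusted p 2.42e-19), and by the erythroid bound free RNA could hold up to 41.2% of its epithelial counts. The value ran from -8.03 without oviduct replicate 2 to -5.84 with doublets kept. Id3 was lower by -2.89 ± 0.12 log2 units (adjusted p 1.22e-18, and -3.58 with clusters), Bmp7 by -1.74 ± 0.14 (adjusted p 2.67e-12), Bmp4 by -1.18 ± 0.18 (adjusted p 9.96e-07, and -1.81 without oviduct replicate 2) and Id1 by -1.07 ± 0.11 (adjusted p 8.90e-10). Against the 3 counts that 0 UMIs allow over the group, Gdf7 was at least 2.80-fold and Grem1 at least 3.97-fold higher in oviduct mesenchyme, though both calls were lost without oviduct replicate 1 (adjusted p 0.0503 and 0.0525) and with DESeq2 (0.384 and 0.058). Gdf7 also lost its call after thinning (0.391), and Grem1 without oviduct replicate 2 (0.117).

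In the uterus 7 of the 10 were called, 6 lower and 1 higher in epithelium, against 45.2% of genes, 26% lower and 19.2% higher. Gdf7 was at least 5.96-fold higher in mesenchyme. Id3 (-1.08 ± 0.12, adjusted p 1.38e-08), Id1 (-0.56 ± 0.12, adjusted p 0.000198), Bmp4 (-1.55 ± 0.39, adjusted p 0.00177), Bmp7 (-2.10 ± 0.27, adjusted p 1.09e-07) and Gdf10 (-4.99 ± 0.35, adjusted p 3.40e-13) were lower in epithelium. With clusters, which left at most 3 UMIs of each of these ligands per uterine library, the calls were lost for Bmp4 (-0.76, adjusted p 0.745), Bmp7 (-0.92, adjusted p 0.559) and Gdf7 (adjusted p 0.468), and Gdf10 was -2.77. With 1 uterine library left out Gdf10 was -5.61 or -4.38. Bmp4 and Gdf7 also lost theirs after thinning (adjusted p 0.393 and 0.224), and Gdf7 with DESeq2 (0.275). Id2 was higher in uterine epithelium by 1.12 ± 0.11 (adjusted p 1.27e-09), which turned to -0.22 (adjusted p 0.615) with clusters in place of gates, where the uterine epithelial sums held 92662 and 169926 UMIs in place of 1142025 and 1786554. The organ by layer interaction was called for Id1, Id2, Id3, Bmp3 and Fst, all negative, against 18.4% of genes, 6.61% with a negative sign. It was -1.81 ± 0.17 for Id3 (adjusted p 2.57e-09), which stayed called under every alternative run. It was -5.51 ± 0.79 for Fst (adjusted p 4.94e-06), from 5 epithelial UMIs in each uterine library, and was not called with clusters, which left no Fst UMI in uterine epithelium, or after thinning, which left 1 and 0 (adjusted p 0.959 and 0.346). The Id1 call was lost without either oviduct library or uterine replicate 1, with clusters and after thinning (adjusted p 0.0984 to 0.284).

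In blood endothelium 1 of 4 tested genes was called between organs, and in pericytes none of 4. Bmp4 stood at 23.0 and 44.6 CPM in oviduct endothelium and at 15.8 and 14.3 CPM in uterine endothelium (log2 difference 1.16 ± 0.24, adjusted p 0.00642), the single call among 4 genes tested against 3.47% of 11136 genes, 2.68% for the oviduct and 0.79% for the uterus. It was lost without oviduct replicate 2 (0.66, adjusted p 0.135), without uterine replicate 1 or 2 (adjusted p 0.0893 and 0.176) and after thinning (adjusted p 0.76). Mesenchymal markers summed to 172.6 and 209.6 CPM in the oviduct endothelial sums and to 62.7 and 78.4 CPM in the uterine ones, and smooth muscle markers to 114.2 and 77.6 CPM against 51.5 and 55.2 CPM, and their part in the Bmp4 value was not tested. Id1 stood at 317.8 and 209.3 CPM in oviduct endothelium and at 217.9 and 146.0 CPM in uterine endothelium (0.58 ± 0.19, adjusted p 0.119), and was called without oviduct replicate 2 (0.86, adjusted p 0.00284), after thinning (0.73, adjusted p 0.00212) and with no filter on low counts (adjusted p 0.0102). In pericytes none of 4 tested genes was called by edgeR or DESeq2, against 4.61% of genes, 3.02% for the oviduct and 1.59% for the uterus, while Gdf10 and Id2 had unadjusted p-values of 0.0213 and 0.00336. Id2 stood at 91.3 and 60.5 CPM in oviduct pericytes and at 111.1 and 110.5 CPM in uterine ones (-0.55 ± 0.16, adjusted p 0.0663), and was called with the replicate block (-0.58, adjusted p 0.0024), without oviduct replicate 1 (-0.93, adjusted p 0.000183), without uterine replicate 1 (adjusted p 0.0432), with no filter on low counts (adjusted p 0.0158) and with the stricter cell filter (adjusted p 0.0457). Gdf10 stood at 10.5 and 4.51 CPM against 16.3 and 13.7 CPM (-0.94, adjusted p 0.196) and was called without oviduct replicate 1 (-1.77, adjusted p 0.0271). Smooth muscle markers summed to 4393 and 3901 CPM in oviduct pericytes and to 2488 and 2222 CPM in uterine ones, and their part in these values was not tested. In myeloid cells none of 3 tested genes was called by edgeR or DESeq2 or had an unadjusted edgeR p under 0.05, against 0.255% of genes, 0.153% for the oviduct and 0.102% for the uterus, and Bmp3, Gdf7 and Grem1 were at 0 UMIs.

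The order of classes differed from gene to gene. In the oviduct, Bmp7 ran from mesenchyme (48.2 ± 4.61 CPM) through mesothelium (23.9 ± 0.417), epithelium (14.0 ± 0.357) and smooth muscle (7.93 ± 0.406), with no overlap between neighbours, and the uterus kept the order of the first 3. For Bmp4 the mesothelium led in both organs, and endothelium and mesenchyme overlapped in the oviduct (33.8 ± 15.2 and 29.5 ± 6.29 CPM). Id1 overlapped between neighbours from mesothelium down to smooth muscle in the oviduct. Id2 was highest in smooth muscle in both organs, at 398.4 ± 29.0 and 587.1 ± 10.6 CPM, and lowest in pericytes, at 75.9 ± 21.8 and 110.8 ± 0.409 CPM. Id3 was highest in oviduct mesenchyme, 820.0 ± 13.3 CPM, and in uterine mesothelium, 1419 ± 64.8 CPM (SD, n = 2 throughout).

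Of a list of 58 further BMP pathway genes, 46 were tested in mesenchyme, and 26 were higher in oviduct mesenchyme and 4 in its uterine counterpart, where 24.3% and 21.3% of all genes were so called. Their median log2 difference was 0.42, and their calls were not followed through the alternatives. By role, 8 of 12 receptor genes favoured the oviduct and 2 the uterus, 8 of 15 antagonists tested were higher and 1 lower, and 4 of 8 SMAD pathway genes were higher and none lower. Of 8 target genes 5 were higher and none lower, and of 6 ligands tested 4 were higher and 1 lower. Smad6, Smad7 and Bambi stand under more than 1 role, so these counts overlap. Rgmb and Rgma, BMP co-receptors of the repulsive guidance family, stood at 49.2 and 48.7 against 11.3 and 11.1 CPM (2.07 ± 0.09, adjusted p 1.10e-08) and at 31.7 and 31.7 against 14.1 and 12.9 CPM (1.18 ± 0.09, adjusted p 1.29e-06). Bambi, a decoy receptor, stood at 67.2 and 72.0 against 37.0 and 40.6 CPM (0.78 ± 0.09, adjusted p 2.77e-05). On the uterine side Amhr2, the receptor of anti-Müllerian hormone, stood at 34.7 and 34.5 against 53.4 and 45.9 CPM (-0.57 ± 0.09, adjusted p 0.000293). Eng, a co-receptor best known from endothelium, and Nbl1, a secreted antagonist, were also higher in the uterus (-0.52 ± 0.08 and -0.28 ± 0.08, adjusted p 0.000356 and 0.0146).

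In epithelium 29 of the 58 were tested, 6 favoured the oviduct and 5 the uterus, where 13.3% and 8.33% of all genes were so called, with a median log2 difference of 0.09 against 0.01 over all genes tested. Of 10 receptors tested 4 were called for the oviduct and none for the uterus, and of 7 target genes 4 were called for the uterus and none for the oviduct. As in mesenchyme, these pathway calls were not followed through the alternatives. The 10 deepest cells held 76.0% and 80.4% of the UMIs of the uterine epithelial sums. Bmpr1b, a type I receptor, stood at 60.0 and 70.3 CPM in the oviduct and at 25.4 and 30.2 CPM in the uterus (1.36 ± 0.21, adjusted p 0.000754). Acvr2a, a type II receptor, and Crim1, a membrane protein that binds BMPs, were also higher in the oviduct (0.92 ± 0.23 and 0.76 ± 0.24, adjusted p 0.0123 and 0.0413). The homeobox genes Msx2 and Msx1, known BMP targets, stood at 19.3 and 7.64 against 183 and 177.4 CPM (-3.63 ± 0.31, adjusted p 9.34e-06) and at 66.2 and 18.9 against 386.2 and 565.3 CPM (-3.36 ± 0.43, adjusted p 0.00017). Smad6, an inhibitory SMAD that BMP signalling induces, stood at 12.4 and 12.9 against 33.3 and 21.8 CPM (-0.93 ± 0.25, adjusted p 0.0211). In mesenchyme the same Msx1 and Smad6 were higher in the oviduct (2.14 ± 0.19 and 0.55 ± 0.11, adjusted p 4.76e-06 and 0.00206). In smooth muscle 17 of 44 tested genes favoured the oviduct and 6 the uterus, where 14.2% and 12.2% of all genes did. In mesothelium 5 and 6 of 44 did so, against 4.4% and 3.11%. In pericytes 1 and 1 of 31 were called, against 3.02% and 1.59%, and in endothelium 2 and 0 of 29, against 2.68% and 0.79%. In myeloid cells none of 9 was called, against 0.153% and 0.102%.

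Across the 28 sums of 7 classes and 4 libraries, the genes most like each of the 10 were ranked by Pearson's r of log2(CPM + 1) among 10649 genes. The sums share libraries, and classes of 1 library share its depth, so the values describe these sums only. Id1 was followed most closely by Gpx8 (r = 0.95), Id3 by Golim4 (0.91) and Id2 by Crabp2 (0.77). Gdf10 was followed by Lum (0.94), itself one of the mesenchymal markers, and by Tnnt1 (0.94). Fst and Grem1 shared the same nearest gene, Aldh1a1, which makes retinoic acid (0.87 and 0.68). Like Fst, Aldh1a1 was among the leading genes of the oviduct cluster led by Wnt16 and Notum. Gdf7 was followed by Cnr1 (0.80) and Rxfp1 (0.77), Bmp3 by Gap43 (0.81), Bmp4 by Arid4b (0.88) and Bmp7 by Tpbg (0.83).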

How the data were processed

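Counts are UMI counts per gene and barcode, deposited by the authors in matrices of called cells and of all barcodes. They were made with Cell Ranger, version 6.0.1 for called cells and 4 for all barcodes per the file headers, and mm10 and Seurat 4.2.3 are named in the submitters' processing notes. The sources used here do not give the annotation or whether introns were counted. Barcodes with under 500 genes or over 15% mitochondrial counts were removed, and doublets were removed by Scrublet score at 0.8% per 1000 barcodes, since its own threshold marked at most 2 barcodes per library. A cell was gated to a class with at least 3 markers of the list seen and at least 10 list UMIs per 10000, for 1 list only. Cells with over 20 erythroid UMIs per 10000 were left out. Of the rest, smooth muscle had at least 64 muscle UMIs per 10000 and 5 of 8 markers, and mesenchyme had under 16. The gate's limits were set after the data had been seen. Counts were summed per library and class and tested with edgeR 4.0.16 (TMM, filterByExpr, quasi-likelihood F test, R 4.3.3), organ as the single term, with adjustment over all genes tested. Layers were compared in 1 model of 8 sums with library as a block. Called means an adjusted p under 0.05. The standard error (SE) of a log2 difference was worked back from the test, as its absolute size over the square root of the F statistic. It is therefore no measure of spread apart from the test. The tests were run on simulated counts with set fold changes, drawn with the spread that edgeR had fitted to these sums. Such a run cannot show whether that spread is right. DESeq2 1.42.0, RLE factors, other filters, clusters (Leiden, scanpy 1.11.5), thinned cells and each library left out were tried as alternatives. The 10 genes, the marker lists and the pathway list were chosen with earlier results of these data known. Named are all 10 genes, the 3 largest pathway calls per direction in epithelium and mesenchyme at 20 CPM or more without overlap, and the 3 most alike genes of each at 5 CPM or more, of which the nearest are printed. Msx1 and Smad6 in mesenchyme were named after their values were seen. The replicate block treats same-numbered libraries as pairs. The design text does not say which number was which pool, so this pairing is an assumption. The deviations of same-numbered sums correlated at -0.10 (epithelium) to 0.20 (mesenchyme). No pair of libraries agreed within sampling noise (chi-square per degree of freedom 4.37 to 17.6 in mesenchyme and epithelium). Sequences are RefSeq's, and those of Id2 and Id3 are not printed because their windows overlap annotated exons. Proteins were not used here.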

Additional observations from a re-analysis of the deposited data

Results flagged for a closer look

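The organ difference was tested for a difference between layers, and these values, oviduct minus uterus in the first layer less the same in mesenchyme, passed the test at an adjusted p under 0.05 (edgeR). For epithelium and mesenchyme they were -4.61 for Bmp3 (adjusted p 0.00339, from 9 epithelial UMIs in all), -5.51 for Fst (4.94e-06), -0.51 for Id1 (0.0221), -0.96 for Id2 (2.76e-05) and -1.81 for Id3 (2.57e-09). For smooth muscle and mesenchyme, a test added after the data had been seen, they were 2.15 for Bmp3 (0.0145), 3.48 for Gdf7 (0.0411), -1.56 for Gdf10 (4.69e-12), -0.84 for Id1 (7.55e-10), -0.99 for Id2 (4.50e-12) and -0.75 for Id3 (2.25e-09). The Gdf7 value rests on 6 UMIs in muscle and was not called when any 1 library was left out, where it ran from 3.18 to 3.87. It was also not called with DESeq2 (adjusted p 0.17) or after thinning (2.38, adjusted p 0.628). The Bmp3 value in muscle was not called with DESeq2, without uterine replicate 2 or after thinning (adjusted p 0.211, 0.12 and 0.354), and was 2.93 without uterine replicate 1. In epithelium the Id1 value was not called without oviduct replicate 1 or 2, without uterine replicate 1, with clusters or after thinning (adjusted p 0.161, 0.284, 0.0984, 0.259 and 0.179). The epithelial Fst value was -7.13 without uterine replicate 2, while oviduct replicate 1 held no epithelial Bmp3 UMI, so without oviduct replicate 2 the Bmp3 value has no measured size. Neither was called after thinning, which left at most 3 epithelial UMIs of either gene per library (adjusted p 0.198 and 0.346). With clusters in place of gates the uterine epithelium held no Bmp3 or Fst UMI, so these epithelial values then have no direction, the Id2 value was 0.033 and not called, and the muscle values of Gdf10, Id2 and Id3 were -0.70, -0.15 and -0.18 and stayed called.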

How the results depend on the processing

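Of 102 tested values of the 10 genes, 64 were called. Of those, 40 kept direction and call under every alternative that tested them, each of which changed 1 choice. The replicate block was not run for layer values, and a gene that failed the count filter of a setting had no value there. Some signs turned with clusters in place of gates, and those given here are of values called by gates or by clusters. The sign turned for Gdf10 (-0.55) and Id2 (-0.14) between organs in mesenchyme, for Id2 in uterine epithelium minus mesenchyme (-0.22), for Id3 in oviduct muscle minus mesenchyme (0.12) and for the epithelial interaction of Id2 (0.033). The fitted interactions of Bmp3 (4.18) and Fst (3.53) also turned, but clusters left 0 UMIs of either gene in uterine epithelium, so these fits show no direction. Id3 in oviduct muscle minus mesenchyme also turned without oviduct replicate 2, its range with 1 library left out being -0.15 to 0.086. The cause of the other turns was not tested. Values called neither by gates nor by clusters are not listed, and some of them changed sign under an alternative too. Between organs, Id1 in mesenchyme ran from -0.059 to 0.263 and Id3 in smooth muscle from -0.243 to 0.143 over all alternatives.

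Counts of the 10 genes called moved as follows. The number of them tested moved with some settings too. With no filter all 10 were tested, in place of 7 in mesothelium, 4 in endothelium and 4 in pericytes. With clusters 6 were tested in pericytes. The count of all genes called also moved between settings, as given in the next paragraph, so these moves are not of the 10 genes alone. In epithelium 4 became 2 with DESeq2 and 1 with clusters, and 0 to 3 with 1 library left out. In pericytes 0 became 1 with no filter on low counts, 1 with the replicate block, 1 with the stricter cell filter and 1 with clusters, and 0 to 2 with 1 library left out. In mesothelium 3 became 6 with no filter and 6 with the replicate block, and 2 to 5 with 1 library left out. In endothelium 1 became 3 with no filter, and 0 to 2 with 1 library left out. The layer counts moved for uterine epithelium (7 to 3 with clusters), for the epithelial interaction (5 to 2 with clusters and 2 with thinned cells, a setting added after the data had been seen) and for oviduct muscle (7 to 4 with DESeq2).

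Counts of all genes called between organs moved by over 1.5 times with DESeq2 in epithelium (2523 to 1468), smooth muscle (3344 to 1948), pericytes (464 to 186), endothelium (386 to 172) and myeloid cells (15 to 30), and after thinning in these first 4 (437, 1909, 196 and 117) and in mesothelium (966 to 375). Thinning tested 4872, 10840, 7576 and 7563 genes in the first 4 and 9808 in mesothelium, in place of 11678, 12675, 10060, 11136 and 12855. With no filter the called counts rose in mesothelium (1611 of 20387 genes tested), endothelium (590 of 17933) and myeloid cells (210 of 14791). With the filter 12855, 11136 and 5893 genes were tested there, so these counts are not shares of the same number of genes. With clusters epithelium gave 1188 of 11408, and with doublets kept myeloid cells gave 9 of 6079. Leaving out 1 library gave 423 and 624 in epithelium without oviduct replicates 1 and 2, 134 and 145 in endothelium without uterine replicates 1 and 2, and 81 to 174 in myeloid cells. Between layers the counts fell with DESeq2 from 5543 to 2468 and from 4318 to 2157 for muscle in the oviduct and uterus. They fell from 3074 to 1064 for the muscle interaction and from 2802 to 1427 for the epithelial one. Thinning gave 4774 in place of 9871 and 2153 in place of 6901 for epithelium, 3670 and 2501 for muscle, and 445 and 1410 for the interactions. It tested 12935 genes in place of 15257 for epithelium and 12793 in place of 14617 for muscle. Clusters gave 2206 for uterine epithelium, 1090 for the epithelial interaction and 1901 for the muscle interaction, and leaving out uterine replicate 2 gave 2836 for uterine muscle.

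The replicate block removed the call of epithelial Id2, added those of pericyte Id2 and mesothelial Gdf10, Fst and Id1, and changed no other call of the 10 genes. Myeloid cells had no value by clusters, with the stricter cell filter or with cells of at least 5000 UMIs, since at least 1 uterine library had under 20 cells left (13 and 7, 18, and 12 cells). Low counts limit Gdf7 and Grem1 outside mesenchyme and all ligands and antagonists in uterine epithelium. The Id genes had more UMIs there, but all uterine epithelial values rest on 38 and 43 cells.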
